A study of Rattus norvegicus with 10 samples.

Results

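The Hox genes of the renal cortex were taken as the protein-coding rows of the deposited expression table whose symbol is Hox followed by a cluster letter from a to d and a number. This rule used no expression value. It found 38 rows with 35 symbols among 22293 protein-coding rows and 32545 rows in all, of which 11 lie in the HoxA cluster, 10 in HoxB, 8 in HoxC and 9 in HoxD. The samples were 10 kidneys, 5 from male and 5 from female PCK rats (PCK/CrljCrl-Pkhd1pck/Crl), and the study asked how the sexes differ in this model of autosomal recessive polycystic kidney disease. All 10 rats carry the *Pkhd1* mutation, so both groups are cystic and no rat without cysts enters any comparison. The series gives an age of 12 to 14 weeks and kidney as the tissue, whereas the study's methods give 10 to 12 weeks and snap-frozen cortex. The methods section on the metabolomics and RNA-seq rats speaks of 2 litters with different parents. The litter of a given rat was not used here, so the tests treat littermates as independent.

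Hox genes encode homeodomain transcription factors that give cells along the body axis their position. They sit in 4 clusters on different chromosomes, and genes at the same place in different clusters, which descend from a common ancestor, form a paralog group. Low numbers mark the 3′ end of a cluster, which is used in anterior tissue, and high numbers the 5′ end, which is used in posterior tissue. In the embryonic kidney the paralogs of group 11 act together in the mesenchyme that calls out the ureteric bud, *Hoxb7* marks the Wolffian duct, the ureteric bud and the collecting duct derived from it, and group 10 acts in the renal stroma. Many Hox genes stay active in adult tissue as a record of position.

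The clusters also hold microRNA genes of the miR-10 and miR-196 families. miR-196 is known to pair with *Hoxb8* messenger RNA and direct its cleavage, so its sequences are shown here beside those of miR-10, from RefSeq on build GRCr8. Capitals mark the seed, bases 2 to 8, with which a microRNA recognises its targets. miR-10a lies in HoxB at chr10:81779730-81779752 (+), miR-10b in HoxD at chr3:80035886-80035907 (+), miR-196a in HoxC at chr7:135988900-135988921 (+), miR-196b in HoxA at chr4:82661149-82661170 (-) and miR-196c in HoxB at chr10:81727561-81727582 (+).
miR-10a-5p: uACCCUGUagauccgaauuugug
miR-10b-5p: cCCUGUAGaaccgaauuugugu
miR-196a-5p: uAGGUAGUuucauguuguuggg
miR-196b-5p: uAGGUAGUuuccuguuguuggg
miR-196c-5p: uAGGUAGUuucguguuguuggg
The 3 members of the miR-196 family from HoxA, HoxB and HoxC shared the seed AGGUAGU. The miR-10b entry begins 2 bases further along nearly the same sequence than the miR-10a entry, so the capitals fall on shifted bases. This offset between entries does not show that the miR-10 members differ in their targets. The poly(A) libraries of this study held only a few reads at the hairpins. *Mir10a* had a mean of 2.54 FPKM (45 reads over 10 rats), *Mir196c* 2.43 FPKM (32 reads), the *rno-mir-196b-1* row 0.525 FPKM (7 reads), *Mir10b* 0.238 FPKM (4 reads) and *Mir615* 0.227 FPKM (4 reads), while the *Mir196b* row had 1 read and *Mir196a* 0. These reads measure polyadenylated RNA over the hairpin and not the mature microRNA.

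RefSeq promoters were available for 18 of the 35 Hox symbols and for all 9 HoxD genes, and HoxD holds both strongly used genes and genes near 0. For that reason the 100 bases before the start of 3 used genes (*Hoxd8*, *Hoxd9* and *Hoxd10*) and 2 genes with almost no reads (*Hoxd12* and *Hoxd13*) are printed, with each CG dinucleotide in capitals. The stretches lie on the + strand of GRCr8 at chr3:80015123-80015222, chr3:80007906-80008005, chr3:80001847-80001946, chr3:79985006-79985105 and chr3:79977977-79978076, in that order.
Hoxd8: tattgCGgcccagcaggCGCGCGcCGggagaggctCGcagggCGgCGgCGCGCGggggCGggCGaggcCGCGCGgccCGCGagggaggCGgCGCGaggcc
Hoxd9: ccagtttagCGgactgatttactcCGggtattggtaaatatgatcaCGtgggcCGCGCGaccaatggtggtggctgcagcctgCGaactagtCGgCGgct
Hoxd10: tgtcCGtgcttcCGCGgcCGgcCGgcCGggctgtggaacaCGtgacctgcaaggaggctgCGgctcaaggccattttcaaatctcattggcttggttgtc
Hoxd12: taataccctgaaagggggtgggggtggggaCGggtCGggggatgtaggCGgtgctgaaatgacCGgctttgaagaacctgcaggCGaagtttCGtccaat
Hoxd13: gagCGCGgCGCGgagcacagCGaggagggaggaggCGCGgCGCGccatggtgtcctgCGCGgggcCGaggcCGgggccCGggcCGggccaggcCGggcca
Over the full window of 300 bases (250 before and 50 after the start), the 9 HoxD promoters held 12 to 49 CG dinucleotides with a median of 25, against a median of 7 over all 33469 promoters of the table. *Hoxd8* held the most, 49, a number reached by 0.866% of all promoters. The near-silent *Hoxd13* held 36 and *Hoxd12* 16, while *Hoxd4*, at 7.32 FPKM, held 12, so the CG count did not follow the level along HoxD. Searched on both strands, CCAAT occurred in 5 of 9 HoxD promoters and in 37.5% of all promoters, and TATAAA in 1 of 9, that of *Hoxd13*, and in 14.2%. The letters AGGTCA occurred in 2 of 9 HoxD promoters and in 16.2% of all, and TGATNNAT in 1 of 9 and in 9.10%.

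The libraries held 13912569 to 20285911 reads on genes. The deposited FPKM (fragments per kilobase of transcript scaled to a library size) used sizes of 0.905 to 1.07 times these totals. Over genes with reads in every rat, the median ratio to the geometric mean was 1.01 in every library. The deposited values were thus already scaled between libraries. With these sizes 1 read on a transcript of 1 kb was worth 0.0486 to 0.0710 FPKM. Without a reference tissue, marker sums cannot tell cortex from whole kidney. Here 8 proximal tubule genes summed to 1672 to 3358 FPKM and 3 thick ascending limb genes to 1002 to 1693 FPKM. The inner medulla list summed to 23.9 to 36.8 FPKM. In that list *Akr1b1* had a mean of 26.0 FPKM, *Aqp4* 3.26 FPKM and the 2 rows of *Slc14a2*, a urea transporter gene, 0.245 FPKM (0 to 2.24 FPKM over the rats) and 0.0323 FPKM. Female 2 stood apart on the second principal component (79.3 against at most 24.8 for the others). It also had the highest mitochondrial share (26.8%, against a lowest of 14.3%) and a urothelial marker sum of 12.8 FPKM against at most 0.763 in the other females. Male 5 stood apart on the third component (56.3). For several genes below the value without these rats is given too.

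Adult cortex used a restricted part of the Hox repertoire. Of the 38 rows, 21 had more than 3 reads in every rat, 9 averaged 10 FPKM or more, and 19 averaged 1 FPKM or more. At most 3 reads in any rat were found for 11 rows, and *Hoxb13* and *Hoxc12* had no read in the 10 libraries, which allows up to 0.0135 and 0.0215 FPKM at a limit of 3 reads over all rats. Such limits and the intervals of reads cover counting error only. Summed over its rows, HoxB made up 59.5% of the Hox total (54.1 to 63.5% over the rats), HoxD 33.0% (29.7 to 38.6%), HoxC 7.05% (5.61 to 9.54%) and HoxA 0.518% (0.231 to 0.805%). The order HoxB, HoxD, HoxC and HoxA held in each of the 10 rats.

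**Figure D1:**
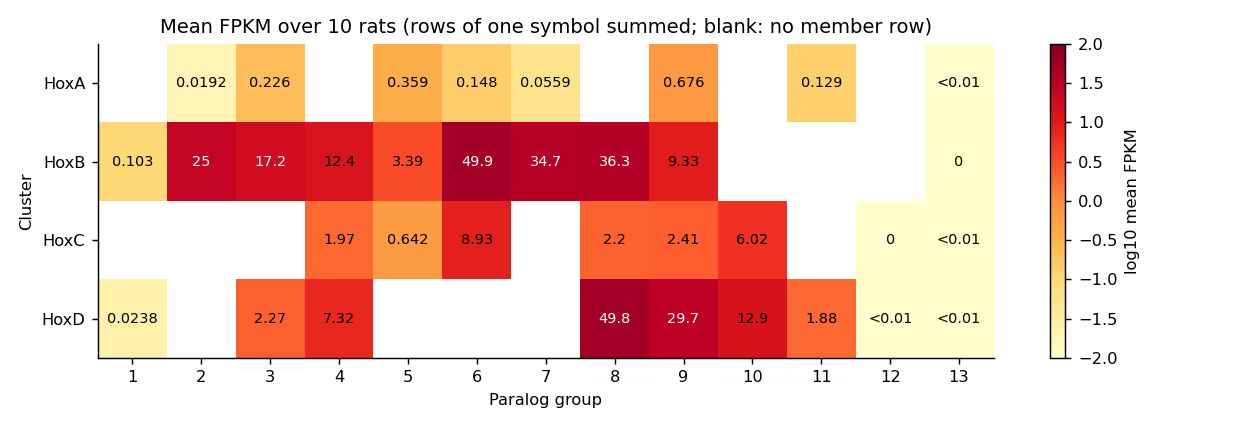
Mean FPKM over 10 rats (numbers and colour, log10 scale) of each Hox gene, with the 4 clusters as rows and the 13 paralog groups as columns. The 9 rows at 10 FPKM or more lie in HoxB and HoxD, and groups 12 and 13 are near 0 in every cluster that holds them.

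HoxB, at the top, was used from *Hoxb2* to *Hoxb9*, with *Hoxb1* at 0.103 FPKM at the 3′ end and *Hoxb13* at 0 at the 5′ end. *Hoxb6* had the highest mean of all Hox genes, 49.9 FPKM, although it was above *Hoxd8* (49.8 FPKM) in only 4 of 10 rats. It was followed in this cluster by *Hoxb8* (36.3 FPKM), *Hoxb7* (34.7 FPKM), *Hoxb2* (25.0 FPKM), *Hoxb3* (17.2 FPKM), *Hoxb4* (12.4 FPKM), *Hoxb9* (9.33 FPKM) and *Hoxb5* (3.39 FPKM). *Hoxb5* was thus a dip between well-used neighbours. *Hoxb6*, 2551 bases away, was 14.7 times as high per length and higher in all 10 rats. The deposited length of *Hoxb6* is short (675 bases against 1534 for *Hoxb5*), and in reads the pair stood at 5569 and 852 over the 10 rats. *Hoxb8* and *Hoxb7*, 1869 bases apart, had no fixed order, with *Hoxb8* the higher in 5 of 10 rats.

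In HoxD the level rose from near 0 at the 5′ end to a peak at *Hoxd8* and fell again. *Hoxd13* (0.00676 FPKM) and *Hoxd12* (0.00652 FPKM) had at most 2 reads in a rat. *Hoxd11*, a gene of kidney induction, had 1.88 FPKM, *Hoxd10* 12.9 FPKM, *Hoxd9* 29.7 FPKM and *Hoxd8* 49.8 FPKM, and each of these steps went the same way in all 10 rats. Beyond the peak came *Hoxd4* with 7.32 FPKM, *Hoxd3* with 2.27 FPKM and *Hoxd1* with 0.0238 FPKM, again in the same order in every rat. The rows of *Hoxd4* and *Mir10b* overlap, and so does a row on the other strand. Whether the counting used strand is not given in the sources used here.

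HoxC was lower, with peaks at *Hoxc6* and *Hoxc10*. *Hoxc6* led with 8.93 FPKM and *Hoxc10* followed with 6.02 FPKM, against 2.41 FPKM for *Hoxc9*, 2.20 FPKM for *Hoxc8*, 1.97 FPKM for *Hoxc4* and 0.642 FPKM for *Hoxc5*. *Hoxc6* was above both of its neighbours, *Hoxc8* and *Hoxc5*, in all 10 rats, by 4.07 and 13.9 times. *Hoxc12* and *Hoxc13* had 0 and 1 read in all.

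**Figure D2:**
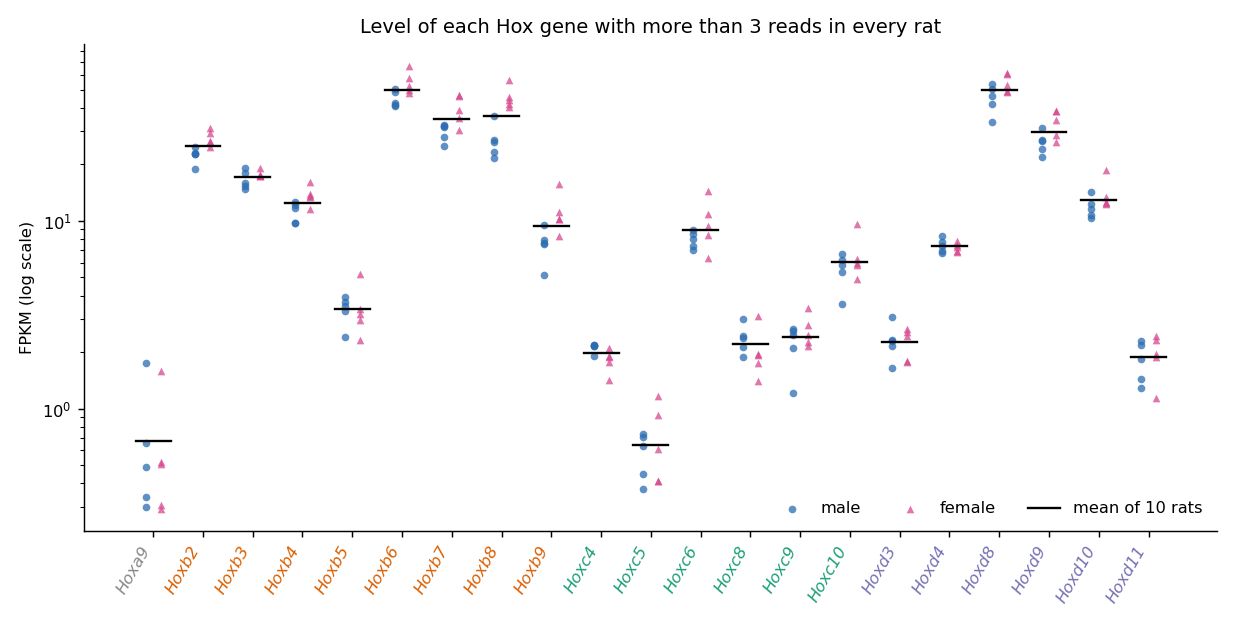
FPKM (log scale) of the 21 Hox genes with more than 3 reads in every rat, for 5 males (circles) and 5 females (triangles), with the mean of 10 rats as a bar and the genes in cluster order. The levels run from 0.642 FPKM for *Hoxc5* to 49.9 FPKM for *Hoxb6*, and *Hoxa9* is the only HoxA gene in the plot.

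HoxA was listed at low levels: no row reached a mean of 1 FPKM, and only *Hoxa9*, at 0.676 FPKM, had more than 3 reads in every rat. The remaining HoxA rows lay between 0.00541 FPKM for *Hoxa13* and 0.226 FPKM for *Hoxa3*. These levels are uncertain. Build Rnor_6.0 carries HoxA sequence more than once, on 2 stretches of chromosome 4, where the *Hoxa9* pair lies 85795 bases apart, and on the scaffold KL567939.1. *Hoxa5* has 3 rows, *Hoxa11* has 2, and the row of *Hoxa9* has a partner of the same span (1965 bases) and length (816 bases) under the name *LOC100909740*, with 6 reads against 91 for *Hoxa9*. Further HoxA genes stand under other names, such as *LOC100909678*, annotated as Hoxa7-like, at 0.560 FPKM, *Rn60_4_1469.2*, described as the protein of a locus that RefSeq names *Hoxa10*, at 0.370 FPKM, and *LOC100912525*, which RefSeq names *Hoxa4*, at 0.115 FPKM. With these rows counted in, HoxA summed to 2.75 FPKM in place of 1.62 FPKM and to 0.871% of the Hox total. How reads that fit more than 1 copy were counted was not tested. In HoxC the row *LOC100911859*, which RefSeq names *Hoxc11*, had 1.05 FPKM.

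Paralogs of a group differed widely in level. Only rows with a Hox symbol were counted, so the HoxA rows under other names, the highest at 0.560 FPKM, were left out. The HoxA levels are uncertain here too. Group 8 had the highest sum, 88.3 FPKM or 27.8% of the Hox total, shared by *Hoxd8* and *Hoxb8*, with *Hoxd8* above *Hoxb8* in 9 of 10 rats, and with *Hoxc8* lower by 22.7 times than *Hoxd8*. Group 6 summed to 59.0 FPKM, group 9 to 42.1 FPKM, group 7 to 34.8 FPKM, group 2 to 25.0 FPKM, group 4 to 21.7 FPKM, group 3 to 19.7 FPKM and group 10 to 18.9 FPKM. Group 5 (4.39 FPKM), group 11, with *Hoxd11* at 1.88 FPKM as its main row and the *Hoxc11* row under its other name not counted, and groups 1 (0.127 FPKM), 13 (0.0182 FPKM) and 12 (0.00652 FPKM) came last. Within groups 3, 4, 5 and 6 the HoxB member was the highest in all 10 rats, while in groups 8, 9, 10 and 11 a HoxD member led by its mean. *Hoxd9* was above *Hoxb9* in all 10 rats by 1.66 to 4.68 times, and *Hoxd10* above *Hoxc10* by 1.61 to 3.24 times.

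By mean, the order of the leading genes was *Hoxb6*, *Hoxd8*, *Hoxb8*, *Hoxb7*, *Hoxd9*, *Hoxb2*, *Hoxb3*, *Hoxd10*, *Hoxb4* and *Hoxb9*. Of the 26 neighbouring pairs in the order of all tested rows, only 2 kept the same member higher in every rat (*Hoxb2* above *Hoxb3*, and *Hoxd11* above *Hoxa9*), so most neighbours did not differ beyond their spread. The order depended on length: in reads over the 10 rats *Hoxd9* came first with 8865, then *Hoxb7* with 7595 and *Hoxd8* with 6845. Deposited lengths of the Hox rows ran from 675 to 3437 bases, and 19 of 38 were multiples of 3, as is a coding sequence without its untranslated ends.

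The spread between rats of the same sex was modest for the genes above 1 FPKM, with a coefficient of variation from 5.69 to 27.2% in males and from 3.95 to 31.8% in females. *Hoxb3*, with a counting error of 4.05%, varied by 3.95% in females and 11.2% in males, and *Hoxd4*, with a counting error of 5.53%, varied by 5.73% and 8.39%. *Hoxc8* in females and *Hoxc9* in males varied most, by 31.8 and 27.2%.

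Between the sexes, *Hoxb8* rose in females, by 1.70 times in mean FPKM. Most other HoxB genes had higher means in females too, without passing the adjusted test, and the fitted change of every tested row was below 2-fold. Of the 38 rows, 27 averaged 0.1 FPKM or more and were tested. None of them passed both thresholds, an adjusted p of at most 0.05 and a 2-fold change (limma, Benjamini-Hochberg over 17631 genes), against 1.32% of all genes tested (0.618% higher and 0.698% lower in females). At the adjusted p alone 1 row passed, *Hoxb8*, against 2.40% of all genes (1.26% higher in females). At an unadjusted p of at most 0.05 there were 7 rows higher in females (*Hoxb2*, *Hoxb4*, *Hoxb6*, *Hoxb7*, *Hoxb8*, *Hoxb9* and *Hoxd9*) and 0 lower, against 7.67% of all genes higher and 8.07% lower. At an exact permutation p of at most 0.05, unadjusted, 6 rows were higher, against 7.45% of all genes. By limma-voom on the reads, 0 Hox rows passed both thresholds as well.

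*Hoxb8* (chr10:84131495-84133246, +, build Rnor_6.0), a gene of trunk patterning and blood progenitors, had 26.9, 23.2, 26.4, 36.4 and 21.6 FPKM in the males. In the females it had 42.1, 56.1, 40.5, 43.9 and 45.7 FPKM. Every female was thus above every male, and the nearest pair was male 4 and female 3. The means were 26.9 ± 5.75 FPKM in males and 45.7 ± 6.16 FPKM in females (SD, n = 5 each), a ratio of 1.70. On the log2(FPKM + 0.1) scale used for all fold changes the difference was 0.78 (SE 0.14, limma adjusted p = 0.0146), and the exact permutation test of the means gave a two-sided p of 0.00794, the smallest that 5 against 5 allows. Without male 5 and female 2 it was 0.63, with an adjusted p of 0.0423. Over all 19 alternative settings the difference ran from 0.63 to 0.89, and 18 kept a limma adjusted p of at most 0.05. The highest adjusted p was 0.0754.

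*Hoxb2* (chr10:84200880-84202688, +), a gene of the hindbrain, was the other gene whose ranges did not overlap. It had 22.7, 24.7, 22.6, 22.9 and 18.9 FPKM in males and 24.9, 26.5, 26.3, 29.5 and 31.1 FPKM in females. The ranges just failed to meet, since the highest male and the lowest female differed by less than the SD of either sex. The means were 22.4 ± 2.13 and 27.7 ± 2.54 FPKM, a log2 difference of 0.31 (SE 0.09) with an adjusted p of 0.124, and the two-sided exact permutation p was 0.00794 before adjustment. Ranges that do not overlap were found for 2 of the 27 rows and for 5.10% of all genes tested (2.50% higher in females).

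**Figure D3:**
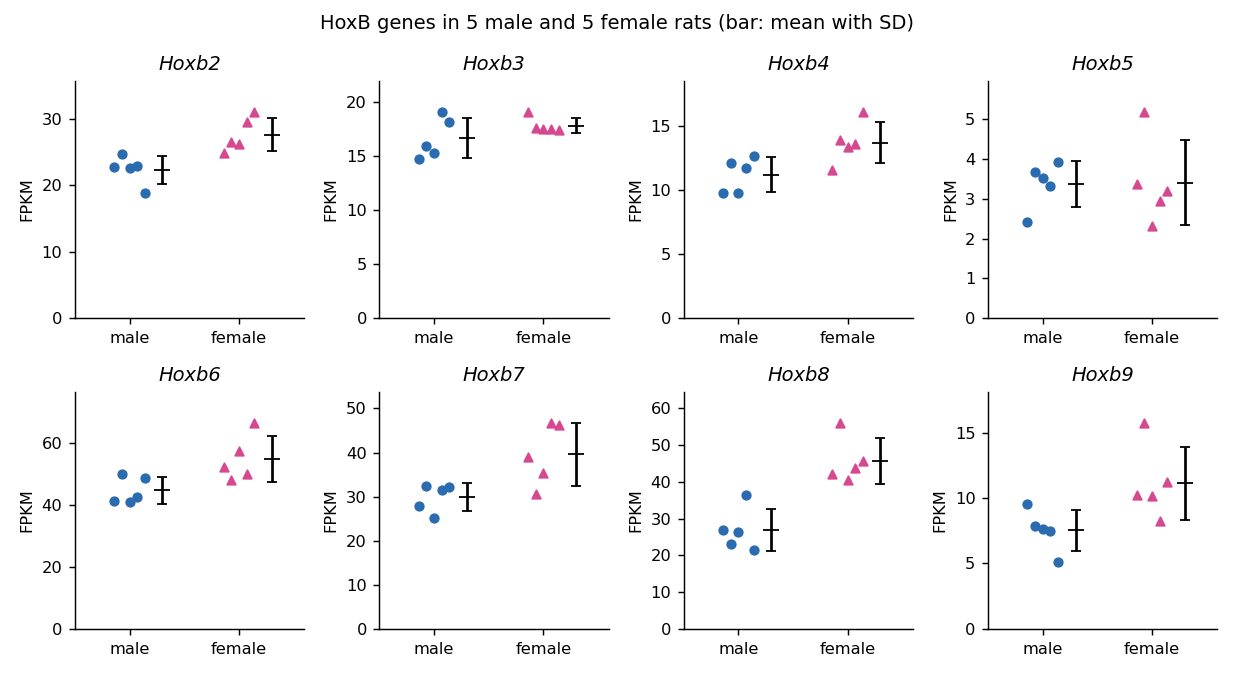
FPKM of the 8 HoxB genes above 1 FPKM in 5 males (circles) and 5 females (triangles), with the mean and SD beside the points and each axis starting at 0. *Hoxb8* and *Hoxb2* are the genes with separate ranges, and *Hoxb5* has nearly equal means, 3.37 and 3.41 FPKM.

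The next HoxB genes overlapped between the sexes and did not pass the adjusted test. *Hoxb7*, the collecting duct gene, had 28.0, 32.5, 25.1, 31.4 and 32.2 FPKM in males and 39.0, 30.5, 35.3, 46.8 and 46.4 FPKM in females. The female with 30.5 FPKM was female 2, and the other 4 females were above every male. The means were 29.9 ± 3.20 and 39.6 ± 7.06 FPKM, a log2 difference of 0.39 (SE 0.13) with an adjusted p of 0.158 and a two-sided exact permutation p of 0.0317. Without female 2 the difference was 0.48 and its adjusted p 0.0499, and without male 5 and female 2 it was 0.51 with an adjusted p of 0.0661.

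*Hoxb9* had 9.54, 7.87, 7.63, 7.52 and 5.13 FPKM in males and 10.2, 15.8, 10.2, 8.26 and 11.2 FPKM in females, and only female 4 lay within the males' range. The log2 difference was 0.55 (SE 0.19, adjusted p = 0.175), and it was 0.29 without male 5 and female 2, the extremes of the 2 groups. *Hoxb6* had 41.5, 50.2, 41.0, 42.7 and 48.7 FPKM in males and 52.5, 48.1, 57.6, 50.0 and 66.7 FPKM in females, with 3 females above every male. Its log2 difference was 0.29 (SE 0.10, adjusted p = 0.198), from means of 44.8 ± 4.34 and 55.0 ± 7.48 FPKM. *Hoxb4*, the neighbour of *Mir10a*, had 9.74, 12.1, 9.76, 11.7 and 12.6 FPKM in males and 11.6, 13.9, 13.4, 13.6 and 16.1 FPKM in females, with a log2 difference of 0.29 (SE 0.11, adjusted p = 0.224). *Hoxb3* and *Hoxb5* differed by 0.11 and -0.02 on the log2 scale.

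Of HoxD, *Hoxd9* had 31.4, 24.0, 26.6, 26.8 and 21.9 FPKM in males and 28.8, 26.2, 38.3, 38.7 and 34.3 FPKM in females, a log2 difference of 0.34 (SE 0.13, adjusted p = 0.236). *Hoxd8*, the most used gene of the cluster, had 53.7, 41.7, 50.5, 46.0 and 33.7 FPKM in males and 49.3, 48.6, 60.3, 61.1 and 52.8 FPKM in females, a log2 difference of 0.28 (SE 0.13, adjusted p = 0.318) that was 0.18 without male 5. The sexes overlapped for both. In HoxC, *Hoxc6* had 7.38, 8.96, 8.47, 8.01 and 7.01 FPKM in males and 6.31, 14.5, 8.38, 9.37 and 10.9 FPKM in females, with a log2 difference of 0.26 (SE 0.19, adjusted p = 0.553) and female 2 highest. Without female 2 this difference was 0.11, and without male 5 and female 2 it was 0.07. With each rat left out in turn it ran from 0.11 to 0.41. *Hoxc4* was the only tested row lower in females at an exact permutation p of at most 0.05 (two-sided p = 0.0159, against 7.38% of all genes), with 2.12 ± 0.120 FPKM in males and 1.82 ± 0.246 FPKM in females and a limma adjusted p of 0.456.

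In HoxA, *Hoxa9* had 1.75, 0.660, 0.340, 0.298 and 0.491 FPKM in males and 0.292, 0.522, 0.508, 1.59 and 0.308 FPKM in females. A single rat of each sex stood above the rest, and the log2 difference of -0.10 (SE 0.49, adjusted p = 0.953) turned to 0.26 without male 1 and to 0.02 under quantile normalization. The lowest difference among the 27 rows, -0.36 (SE 0.64, adjusted p = 0.845), belonged to the *Hoxa11* row at chr4:82298152-82300503, which had 18 reads in all, 12 of them in male 5.

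**Figure D4:**
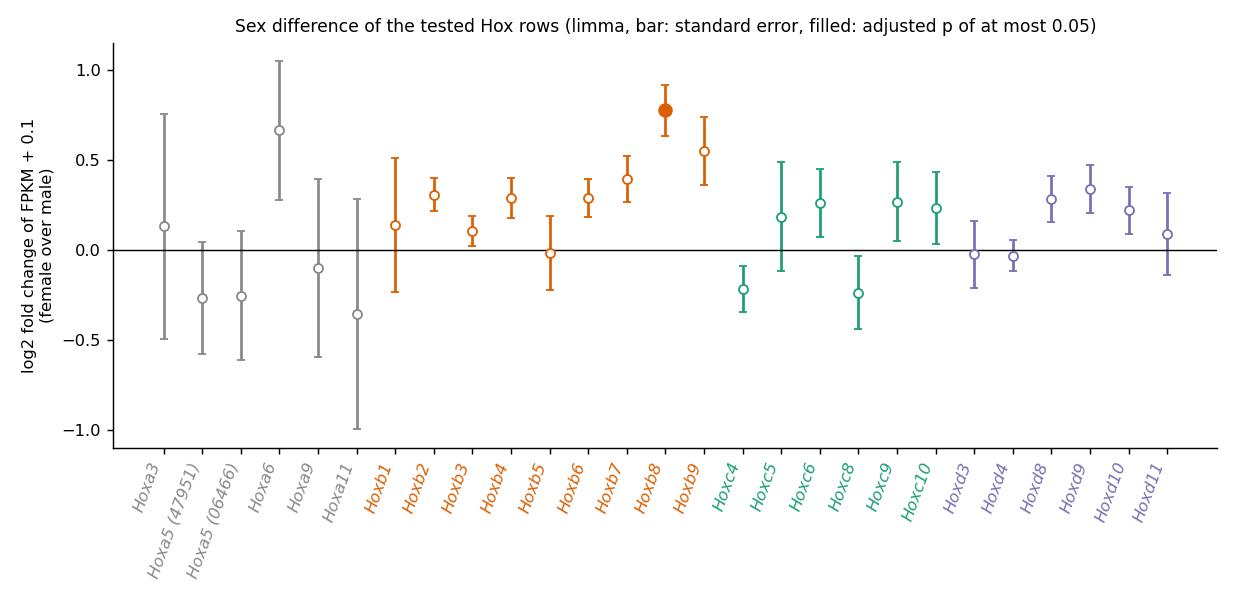
Log2 fold change of FPKM + 0.1, female over male, with its standard error (limma) for the 27 tested Hox rows in cluster order, with a filled point for an adjusted p of at most 0.05. *Hoxb8* is the only filled point, 8 of the 9 HoxB rows lie above 0, and *Hoxa11* and *Hoxa3* have the widest errors (0.64 and 0.63).

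By count, 18 of the 27 tested rows were higher in females, against 48.8% of all genes tested, and their median log2 difference was 0.18, against -0.01 over all genes. Among rows that averaged 1 FPKM or more, 14 of 19 were higher with a median of 0.26, against 51.3% and 0.01 over 13363 genes. HoxB had 8 of 9 rows higher and a median of 0.29, HoxC 4 of 6 and 0.21, HoxD 4 of 6 and 0.15, and HoxA 2 of 6 and -0.18. Scaling by total reads moved the median over all genes to -0.08, and the Hox median to 0.12, with 18 of the 27 Hox rows higher. The Hox median was 0.11 (16 of 27 rows higher) without female 2, and 0.09 (16 of 26) without male 5 and female 2.

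Summed over the cluster, HoxB stood at 155, 170, 152, 175 and 161 FPKM in males and at 203, 214, 203, 213 and 238 FPKM in females. Every female was above every male, with means of 163 ± 9.87 and 214 ± 14.3 FPKM. HoxD overlapped, with 94.7 ± 12.1 and 113 ± 9.53 FPKM, as did HoxC, with 20.8 ± 2.04 and 23.6 ± 6.01 FPKM, and HoxA, with 1.59 ± 0.588 and 1.65 ± 0.899 FPKM. The sum of all Hox rows ran from 260 to 293 FPKM over the males and from 324 to 375 FPKM over the females. Within HoxB, *Hoxb8* took 16.5 ± 3.08% of the sum in males and 21.4 ± 2.81% in females, and *Hoxb3* took 10.2 ± 0.825% and 8.35 ± 0.753%, and for both the ranges overlapped. By paralog group, the sums of groups 2 and 8 did not overlap between the sexes, at 18.9 to 24.7 and 24.9 to 31.1 FPKM for group 2, and at 58.3 to 84.5 and 93.3 to 108 FPKM for group 8. These sums carry no test.

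**Figure D5:**
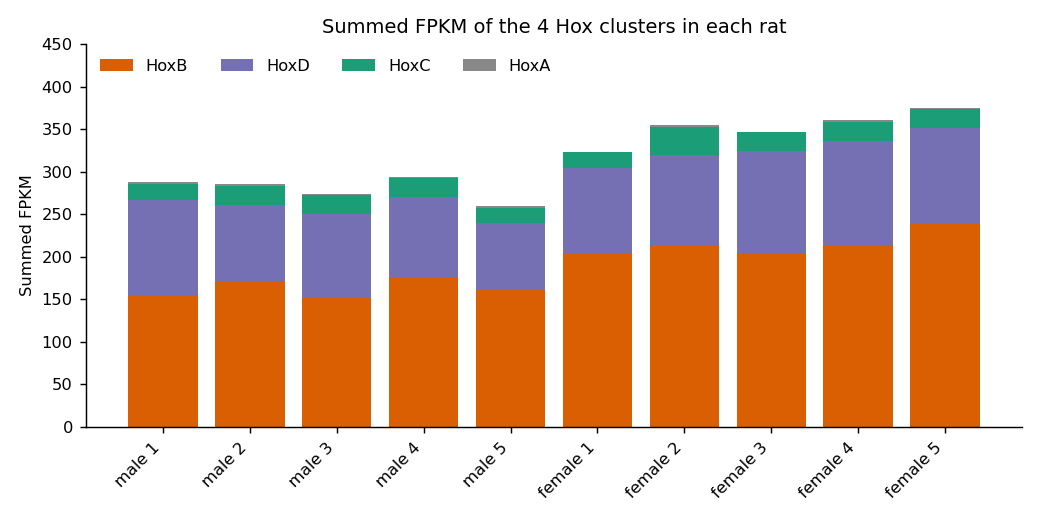
Summed FPKM of the 4 Hox clusters in each of the 10 rats, stacked from 0. The HoxB part is 152 to 175 FPKM in the males and 203 to 238 FPKM in the females, and HoxA is barely visible.

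Markers of the cell types of the kidney were read beside these values, and few single markers passed the test. In bulk tissue, fewer cells of a type and less RNA per cell cannot be told apart. All 8 principal cell markers were higher in females, with a median log2 difference of 0.40, and their sum ran from 327 to 520 FPKM in the males and from 379 to 586 FPKM in the females. All 5 intercalated cell markers were higher, with a median of 0.58, and their sum ran from 134 to 205 FPKM in the males and from 215 to 337 FPKM in the females, without overlap. Of these 13 markers, *Avpr2* (the vasopressin V2 receptor, adjusted p = 0.0469) and *Atp6v0d2* (a proton pump subunit, adjusted p = 0.0351) passed the adjusted p. The thick ascending limb markers (3 of 3 higher, median 0.35) and the distal convoluted tubule markers (2 of 2 tested, median 0.42, with *Pvalb* at 0) lay the same way without a call, and of the proximal tubule markers 4 of 8 were higher (median 0.06), with *Cubn* past the adjusted p (log2 difference 0.72, adjusted p = 0.0467). All 6 stroma markers had a log2 difference below 0, with a median of -0.69, although the mean of *Lum* was 0.847 FPKM in males and 1.02 FPKM in females. Their sum ran from 190 to 267 FPKM in the males and from 68.6 to 203 FPKM in the females. All 5 podocyte markers were higher (median 0.27) and all 5 immune markers lower (median -0.46). No stroma, podocyte or immune marker passed the adjusted p. The part of cell makeup in the Hox differences was not tested.

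Genes that work with Hox proteins or act on the clusters mostly did not pass the test between the sexes, where 2.40% of all genes passed the adjusted p and 1.32% both thresholds. The TALE homeodomain proteins bind DNA together with Hox proteins, and of the 9 genes tested *Pbx2* had a mean of 15.8 FPKM. *Pbx4* alone passed both thresholds, with 2.43 ± 0.484 FPKM in males and 5.06 ± 1.43 FPKM in females (log2 difference 1.01, adjusted p = 0.0192). The call lies at the edge of the 2-fold threshold. The settings that lost it included a pseudocount of 1, scaling by total reads, and leaving out male 3, male 5, female 4 or female 5. Of 21 chromatin regulators, the highest were *Ring1* (25.6 FPKM) and *Bmi1* (22.5 FPKM), Polycomb genes that keep Hox clusters silent. In that list *Kdm6a*, an X-linked demethylase that removes the Polycomb mark, was higher in females at the adjusted p alone (6.07 ± 0.355 and 10.3 ± 0.856 FPKM, log2 difference 0.75, adjusted p = 8.65e-04). Of the 21 genes 10 were higher and 11 lower in females. At an unadjusted limma p of at most 0.05 there were 2 higher and 1 lower, against 7.67% and 8.07% of all genes.

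Retinoic acid switches on 3′ Hox genes in the embryo. None of the 12 tested genes of its pathway passed the adjusted p (1 higher and 1 lower at an unadjusted p of at most 0.05, against the 7.67% and 8.07% of all genes given above), and *Aldh1a1*, which makes retinoic acid, was the highest at 198 FPKM. Of 22 partners in kidney development 18 were tested, among them *Tfcp2l1*, a collecting duct gene, at 48.4 FPKM, and *Sall1*, a nephron progenitor gene, was higher in females (13.7 ± 2.07 and 20.9 ± 1.29 FPKM, log2 difference 0.61, adjusted p = 0.0118). In that list 14 of the 18 were higher in females with a median log2 difference of 0.21, and 5 were higher and 0 lower at an unadjusted p of at most 0.05. Of the ParaHox and linked homeobox genes, which share ancestry with Hox genes, only *Cdx4* passed the filter (0.430 FPKM), and the next, *Cdx2*, had 0.0631 FPKM. Of the genes that flank the clusters 12 were tested and none passed the adjusted p of limma (0 higher and 1 lower at an unadjusted p of at most 0.05), with *Hibadh* at 193 FPKM and *Hnrnpa1* at 84.2 FPKM.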

How the data were processed

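Poly(A) RNA from the renal cortex of PCK rats (5 males, 5 females) was sequenced, 1 library per rat, and groups followed the sex in the labels. The authors deposited 1 table of FPKM values on build Rnor_6.0, mapped with HISAT2 2.0.5, and the submitters' processing notes also name fastp, StringTie 1.3.3b and featureCounts 1.5.0-p3. No column of per-sample values was left out. Each FPKM, divided by the value of 1 read at the deposited length, gave whole reads for 100% of values (tolerance 0.01), with 13912569 to 20285911 reads per library. Genes averaging 0.1 FPKM or more were tested by limma 3.58.1 (lmFit and eBayes with trend, R 4.3.3) on log2(FPKM + 0.1), with Benjamini-Hochberg adjustment over 17631 genes. Single genes had a two-sided exact permutation test of the means (scipy 1.17.1, numpy 2.4.6, pandas 2.3.3, Python 3.11.15). The limma script was tested on simulated data.

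The Hox members and all gene lists were chosen with earlier results of these data known. A sex difference was given singly for members with an unadjusted p of at most 0.05 or separate ranges, for the highest gene of each cluster and for both ends of the fold changes. From each related list the 2 highest genes and those passing the adjusted p were named, except for some genes that are not reported here. *Hoxc4*, *Hoxb3* and *Hoxb5* were named beyond this rule after their values were seen. Marker lists whose sex difference the report does not give had no gene past the adjusted p: inner medulla (2 of 3), urothelium (4 of 4), endothelium (4 of 5), adrenal cortex (1 of 1) and adipocyte (1 of 2). Alternatives covered the pseudocount, filter, scaling, tool, replicate block and each left-out rat. RefSeq sequences are on GRCr8, and no coordinate was converted between builds. P-values measure the spread between these rats only.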

Additional observations from a re-analysis of the deposited data

Results flagged for a closer look

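Within a sex, 9 values among 62 groups of 5 rats lay far from the other 4, where chance gives about 1 in 20 for independent, normally distributed values. Genes of the same rat are not independent and some values rest on few reads. Whether 9 is more than chance gives was therefore not tested. Female 2 was high for *Hoxa3* (1.17 FPKM), *Hoxc10* (9.61 FPKM) and *Hoxd10* (18.7 FPKM). Male 5 was high for the *Hoxa5* row ENSRNOG00000047951 (0.251 FPKM) and the *Hoxa11* row ENSRNOG00000053884 (0.850 FPKM), and low for *Hoxc4* (1.90 FPKM). *Hoxa9* was high in male 1 (1.75 FPKM) and in female 4 (1.59 FPKM), and *Hoxb3* was high in female 1 (19.0 FPKM). Female 2 and male 5, the rats that stood apart over all genes, held 3 of these values each. The HoxA values rest on 7 to 23 reads.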

How the results depend on the processing

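The genes called higher in females numbered 109 over all genes, and 65 with a pseudocount of 1, 223 at the adjusted p alone and 82 to 114 with each rat left out in turn. Those lower numbered 123, and 72, 201 and 89 to 148 under the same settings. The Hox rows called higher numbered 0, 1 at the adjusted p alone and 7 at an unadjusted p of at most 0.05, a setting chosen after seeing the data. The related lists gave 1 call, 0 with a pseudocount of 1 or scaling by total reads, 0 to 1 with each rat left out, 3 at the adjusted p alone, and 2 without male 5 and female 2, also chosen after seeing the data. *Hoxa9* changed sign, to 0.0237 under quantile normalization and within -0.45 to 0.26 with each rat left out. *Hoxb8* kept its direction in all 19 alternatives (0.63 to 0.89, adjusted p 0.00356 to 0.0754) and its adjusted p in 18. The share of HoxA was 0.871% with Hox rows under other names, chosen after seeing the data. In summed reads not per length, HoxB took 53.2%, HoxC 8.66% and HoxD 37.6%. The cause was not tested where the settings themselves do not show it.

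Same-numbered males and females did not deviate together (correlations of -0.10 to 0.07), which gave no ground to pair the rats by number. Such correlations cannot exclude that rats share a litter. With a replicate block the calls over all genes were 89 higher and 87 lower, the related lists gave 0, and *Hoxb8* had a log2 difference of 0.78 with an adjusted p of 0.0754. Depth limits most the 11 rows with at most 3 reads in any rat, which rest on 0 to 15 reads in all.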
